A study of Mus musculus with 16 samples.

Results

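RNA for CD40, its ligand and the genes through which CD40 reaches NF-kB was followed in PDA30364 tumors treated with an agonist anti-CD40 Ab, with and without gemcitabine (GEM). The 10 genes, chosen with earlier results of these data known, were Cd40, Cd40lg, Traf1, Traf2, Traf3, Traf6, Nfkb2, Relb, Birc3 and Tnfaip3, and for each the probe set with the highest mean over the 16 arrays stood for the gene. Of the 10, 9 were measured, by 19 probe sets among the 45037 tested, and they are 9 of 18193 genes represented. No probe set was annotated to Traf3 alone, so Traf3 was not analysed here.

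PDA30364 is a mouse pancreatic ductal adenocarcinoma line from a tumor of a genetically engineered mouse, and it stands for 1 such tumor. The cells were grown in Matrigel under the flank skin of C57BL/6-Ly5.1 mice aged 6 to 12 weeks, and RNA came from pieces of bulk tumor tissue, which hold tumor cells together with immune cells, stroma and any host tissue taken along. The 4 groups of 4 mice were control (vehicle and control IgG), anti-CD40 Ab (vehicle and CD40 mIgG1), GEM (GEM and control IgG) and GEM/anti-CD40 Ab (GEM and CD40 mIgG1). Days 1, 5 and 12 of treatment brought GEM, a drug that mimics a nucleoside and stops DNA replication, at 120 mg/kg, or vehicle. Every mouse received an antibody, either the agonist or its isotype control, on treatment days 3, 4, 6 and 14, and tumors were taken 22 or 23 days after the cells were implanted. Values are log2 intensities on Affymetrix arrays, where a step of 1 is a doubling and where levels of different probe sets are not comparable with each other. The number of arrays, 4 per group, limits the precision of every value below.

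CD40 is a receptor of the TNF receptor family on dendritic cells, macrophages and B cells, and it is also found on endothelium and some epithelia. Its ligand, encoded by Cd40lg, sits on activated T cells and platelets. Without a signal, a complex of TRAF3, TRAF2 and the ubiquitin ligases cIAP1 and cIAP2 has the kinase NIK degraded. Binding of CD40 removes TRAF3, NIK accumulates, and the precursor p100, the product of Nfkb2, is cut to p52, which enters the nucleus with RelB. This is the noncanonical arm, while TRAF6 mainly feeds the canonical arm that releases RelA. Nfkb2, Relb, Traf1, Birc3 and Tnfaip3 are known NF-kB target genes themselves. The cutting of p100 is a step in protein, which arrays of RNA do not measure.

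The members' promoters are shown first, because several of these genes are known to be switched on by the factor they help to make. RefSeq windows (GRCm38.p6) from 250 bases before to 50 bases after a start of transcription were given for 7 of the 10 members, in 10 windows, and none for Cd40, Cd40lg and Relb. The NF-kB consensus of 10 bases (the kappaB site), searched on both strands and counting overlapping matches, was found in windows of 3 of these 7, Nfkb2, Tnfaip3 and Traf3. Over the table, 9.55% of 27025 genes had a window with at least 1 match. By window, 5 of the members' 10 held a match, against 8.46% of 32851. Those 5 are not independent, since Nfkb2 has several windows and some share a match. The windows of Birc3, Traf1, Traf2 and Traf6 held no match. No match means only that these letters were not in the window. The 250 bases before a start are printed 5' to 3' on the strand of the gene for Nfkb2, whose window held the most matches, and for Tnfaip3, with the matches in capitals.
Nfkb2, chr19:46304487-46304736, plus strand: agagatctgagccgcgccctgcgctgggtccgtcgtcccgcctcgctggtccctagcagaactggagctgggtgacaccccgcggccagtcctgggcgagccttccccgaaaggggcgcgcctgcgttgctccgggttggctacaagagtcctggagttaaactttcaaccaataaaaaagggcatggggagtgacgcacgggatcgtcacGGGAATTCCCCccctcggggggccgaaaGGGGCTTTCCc
Tnfaip3, chr10:19015411-19015660, minus strand: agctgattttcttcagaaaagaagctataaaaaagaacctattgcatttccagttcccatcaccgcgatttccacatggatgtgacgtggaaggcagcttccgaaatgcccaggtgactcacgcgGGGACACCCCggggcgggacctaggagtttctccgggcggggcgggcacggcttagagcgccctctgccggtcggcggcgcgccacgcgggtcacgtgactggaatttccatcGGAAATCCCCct

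In the Nfkb2 sequence a match began 39 bases before the start, where it read as the consensus on both strands, with an overlapping match on the opposite strand 38 bases before, and another began 11 bases before the start. The windows of 2 further Nfkb2 starts shared 1 match, and 1 of these windows held another 236 bases before its start. In Tnfaip3, matches began 125 and 12 bases before the start, and the Traf3 window held 1 match 10 bases before its start. Windows with 2 or more matches made up 1.22% of the table. These are matches of letters, and no binding was measured.

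None of the 9 members passed the test in any comparison, at an adjusted p under 0.05 by limma over all probe sets. On the GEM background the levels in GEM/anti-CD40 Ab tumors lay above those in GEM tumors for all 9, by 1.245 on the log2 scale for Cd40, 0.74 for Traf1, and 0.17 to 0.42 for Traf2, Traf6, Nfkb2, Relb, Birc3 and Tnfaip3, against 0.03 for Cd40lg. The adjusted p ran from 0.197 to 0.935. Without GEM the differences between anti-CD40 Ab and control tumors ran from -0.0225 to 0.29, with adjusted p from 0.844 to 0.989. GEM/anti-CD40 Ab was the group with the highest mean for 8 of the 9 members, Cd40lg being the exception.

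**Figure D1:**
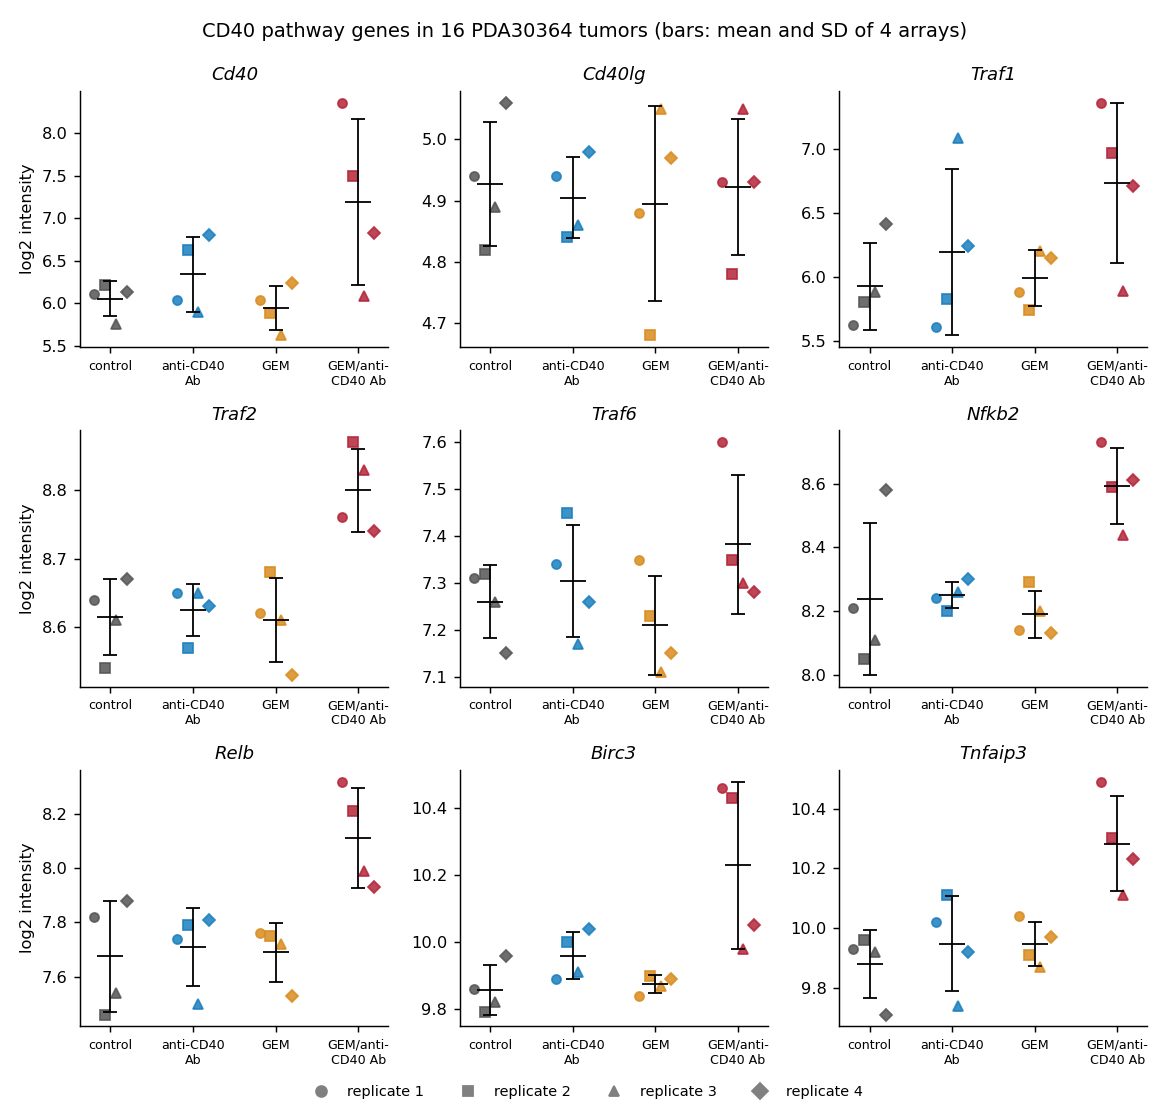
Log2 intensity of the 9 measured members (vertical axes, each with its own range) in the 16 tumors by group (horizontal axes), 1 point per array with the replicate number as the symbol, and the mean and SD of 4 arrays as bars. In GEM/anti-CD40 Ab tumors Cd40 ranged from 6.08 in replicate 3 to 8.36 in replicate 1, while all 12 other tumors lay between 5.62 and 6.80.

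Cd40, the receptor that the antibody binds, was measured at 6.11, 6.21, 5.75 and 6.13 in the control tumors of replicates 1 to 4 and at 6.04, 6.63, 5.89 and 6.80 with anti-CD40 Ab. It stood at 6.04, 5.88, 5.62 and 6.24 with GEM and at 8.36, 7.50, 6.08 and 6.82 with GEM/anti-CD40 Ab. Replicates 1, 2 and 4 of the last group were above every GEM tumor, while replicate 3 fell inside the range of the GEM tumors. The spread of the GEM/anti-CD40 Ab group (SD 0.97, n = 4) was the widest of the 4 groups, with 0.20, 0.44 and 0.26 in control, anti-CD40 Ab and GEM tumors. The difference of GEM/anti-CD40 Ab from GEM was 1.245 (limma's SE 0.41), a 2.37-fold higher intensity with an adjusted p of 0.313, and 0.29 (SE 0.20, adjusted p = 0.848) between anti-CD40 Ab and control. The latter was 0.14 without replicate 4 of the anti-CD40 Ab tumors and 0.44 without replicate 3. The difference on the GEM background was 0.86 without replicate 1 of the GEM/anti-CD40 Ab tumors, and without replicate 3 it was 1.615 (adjusted p = 0.0864). In bulk tissue, fewer cells of a type and less RNA per cell cannot be told apart.

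All 3 Cd40 probe sets gave this picture. The others read 0.14 and 0.37 between anti-CD40 Ab and control and 1.25 and 1.725 between GEM/anti-CD40 Ab and GEM, with adjusted p of 0.305 and 0.284 on the GEM background. Over the 16 arrays the 3 correlated with each other at r of 0.967 to 0.983. In the plot of probe sets, replicate 3 is the lowest GEM/anti-CD40 Ab tumor in all 3.

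**Figure D2:**
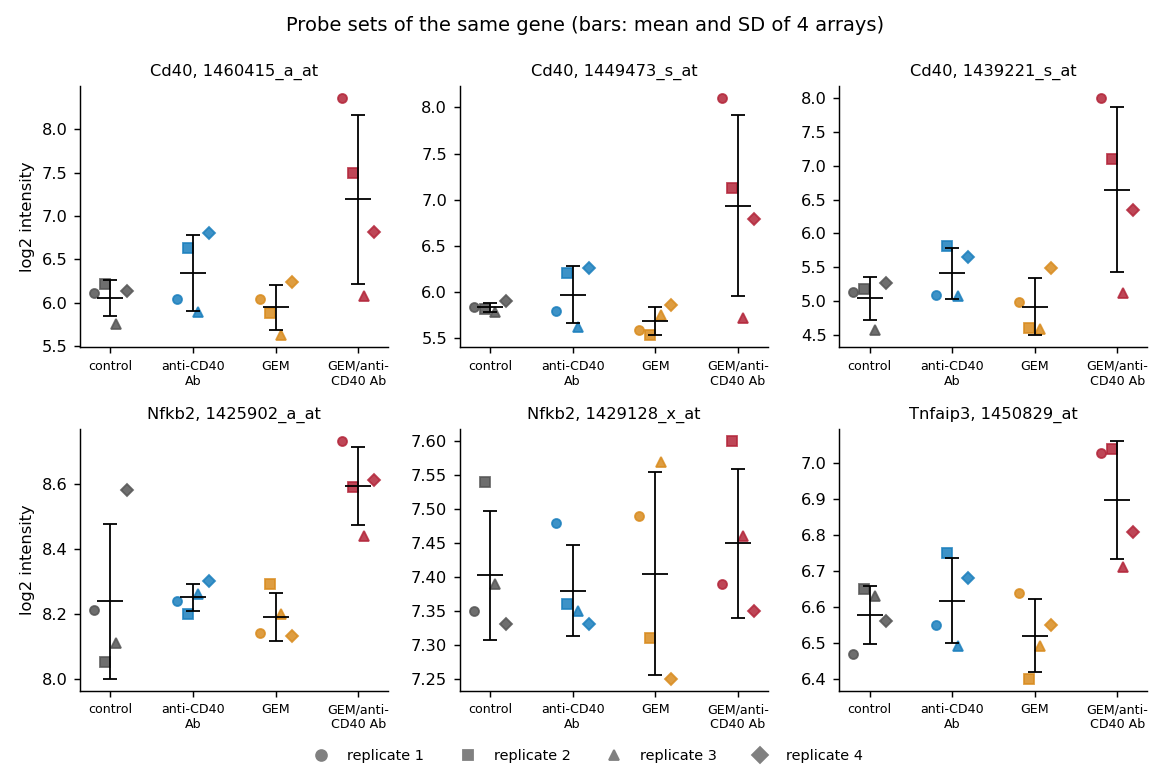
Log2 intensity (vertical axes) of the 3 Cd40 probe sets, the 2 of Nfkb2 and the second of Tnfaip3 in the 4 groups (horizontal axes), 1 point per array, with mean and SD of 4 arrays. Replicates 1, 2, 4 and 3 of GEM/anti-CD40 Ab follow each other downward in all 3 Cd40 panels, while the second Nfkb2 probe set shows a difference of 0.045 where the first shows 0.40.

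Cd40lg, the ligand, was low on these arrays, with a mean over 16 arrays of 4.91, at the 40.2th percentile of all probe sets. No calls of detection came with the values, and a difference may not be detectable at such a level. Its tumors read 4.94, 4.82, 4.89 and 5.06 in the control group and 4.94, 4.84, 4.86 and 4.98 with anti-CD40 Ab. GEM tumors gave 4.88, 4.68, 5.05 and 4.97, and GEM/anti-CD40 Ab tumors 4.93, 4.78, 5.05 and 4.93. All 4 groups overlapped, and the differences were -0.0225 (95% confidence interval -0.18 to 0.14) without GEM and 0.03 (-0.18 to 0.24) on the GEM background.

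Of the adaptor proteins that CD40 recruits, Traf1, which is itself induced by NF-kB and binds TRAF2, varied most between tumors. It was measured at 5.62, 5.80, 5.88 and 6.41 in control tumors, and at 5.61, 5.83, 7.08 and 6.24 with anti-CD40 Ab. GEM tumors gave 5.88, 5.74, 6.20 and 6.15, and GEM/anti-CD40 Ab tumors 7.36, 6.97, 5.89 and 6.71. As for Cd40, replicate 3 was the GEM/anti-CD40 Ab tumor that overlapped the GEM group. The difference was 0.74 (SE 0.27, adjusted p = 0.353) on the GEM background and 0.26 (SE 0.30, adjusted p = 0.901) without GEM. The latter turned to -0.03 without replicate 3 of the anti-CD40 Ab tumors, the highest of that group. A second Traf1 probe set read 0.33 on the GEM background (adjusted p = 0.541) and 0.305 without GEM (adjusted p = 0.858).

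Traf2, the adaptor that brings the cIAP ligases to the receptor, differed little in size but without overlap on the GEM background. Its values were 8.62, 8.68, 8.61 and 8.53 with GEM and 8.76, 8.87, 8.83 and 8.74 with GEM/anti-CD40 Ab, a difference of 0.19 (SE 0.06, adjusted p = 0.291). Without GEM the values of 8.64, 8.54, 8.61 and 8.67 in control tumors and 8.65, 8.57, 8.65 and 8.63 with anti-CD40 Ab overlapped fully, with a difference of 0.01. Traf6, which links CD40 to the canonical arm, stood at 7.35, 7.23, 7.11 and 7.15 with GEM and at 7.60, 7.35, 7.30 and 7.28 with GEM/anti-CD40 Ab. These groups overlapped, with a difference of 0.17 (SE 0.09, adjusted p = 0.496), and the mean of the 5 Traf6 probe sets differed by 0.06. Without replicate 1 of the GEM/anti-CD40 Ab tumors the Traf6 difference was 0.10. Without GEM, Traf6 read 7.31, 7.32, 7.26 and 7.15 in control tumors and 7.34, 7.45, 7.17 and 7.26 with anti-CD40 Ab, which overlapped as well.

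Nfkb2, which encodes p100, was measured at 8.21, 8.05, 8.11 and 8.58 in control tumors and 8.24, 8.20, 8.26 and 8.30 with anti-CD40 Ab. It stood at 8.14, 8.29, 8.20 and 8.13 with GEM and at 8.73, 8.59, 8.44 and 8.61 with GEM/anti-CD40 Ab. All 4 GEM/anti-CD40 Ab tumors were above all 4 GEM tumors, while anti-CD40 Ab tumors lay within the range of the controls. The difference on the GEM background was 0.40 (SE 0.07), 1.32-fold, with limma's unadjusted p of 0.000407. Its adjusted p of 0.197 was also the smallest that any of the 45037 probe sets reached in that comparison. The adjustment gave this same value to many probe sets, so it does not place Nfkb2 first among them. The second Nfkb2 probe set, of the _x_at kind that can bind related transcripts, read 7.25 to 7.57 with GEM and 7.35 to 7.60 with GEM/anti-CD40 Ab, a difference of 0.045. Its correlation with the first over the 16 arrays was -0.0254, and the mean of both differed by 0.22 on the GEM background.

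Relb, the partner of p52, read 7.82, 7.46, 7.54 and 7.88 in control tumors, and 7.74, 7.79, 7.50 and 7.81 with anti-CD40 Ab. GEM tumors gave 7.76, 7.75, 7.72 and 7.53, and GEM/anti-CD40 Ab tumors 8.32, 8.21, 7.99 and 7.93. The GEM/anti-CD40 Ab tumors again lay above all GEM tumors, and in fact above all 12 other tumors. The difference was 0.42 (SE 0.10, adjusted p = 0.218) on the GEM background and 0.035 (SE 0.11, adjusted p = 0.969) without GEM. Relb had a single probe set.

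Birc3, the cIAP2 ubiquitin ligase of the receptor complex, stood at 9.84, 9.90, 9.87 and 9.89 with GEM and at 10.46, 10.43, 9.98 and 10.05 with GEM/anti-CD40 Ab. The 4 values of the latter fell into a high and a low pair, and all were above the GEM tumors, with a difference of 0.355 (SE 0.11, adjusted p = 0.297). In the tumors without GEM it read 9.86, 9.79, 9.82 and 9.96 with control IgG and 9.89, 10.00, 9.91 and 10.04 with the agonist, which overlapped, with a difference of 0.10 (SE 0.07, adjusted p = 0.844). A second and dimmer Birc3 probe set read 0.0825 on the GEM background and 0.0875 without GEM. The mean of both probe sets differed by 0.22 on the GEM background.

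Tnfaip3 encodes A20, a ubiquitin-editing enzyme that limits the canonical arm. It was measured at 9.93, 9.96, 9.92 and 9.71 in control tumors and 10.02, 10.11, 9.74 and 9.92 with anti-CD40 Ab, a difference of 0.07 (SE 0.09, adjusted p = 0.922). With GEM it stood at 10.04, 9.91, 9.87 and 9.97 and with GEM/anti-CD40 Ab at 10.49, 10.30, 10.11 and 10.23. The groups on the GEM background did not overlap, with a difference of 0.335 (SE 0.09, adjusted p = 0.237), and a second Tnfaip3 probe set that did not overlap either read 0.38 (adjusted p = 0.228).

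Counts over the members were read against those over all genes. Without GEM, no member had an unadjusted p under 0.05 in either direction, where 3.52% of the 18193 genes had one and were higher with the antibody. No member had all 4 anti-CD40 Ab tumors above all 4 controls, against 1.66% of genes. On the GEM background 7 of 9 members had an unadjusted p under 0.05 and were higher, against 6.67% of genes, and none was lower. The same background had 5 of 9 members, Traf2, Nfkb2, Relb, Birc3 and Tnfaip3, with every GEM/anti-CD40 Ab tumor above every GEM tumor, against 3.69% of genes. These counts use 1 probe set per gene. The second probe sets of Traf1, Nfkb2 and Birc3 had limma's unadjusted p of 0.111, 0.627 and 0.363 with GEM, and their groups overlapped. The other probe sets of Cd40 had p of 0.0129 and 0.00946, and that of Tnfaip3 had 0.00255. The median difference of the members was 0.045 without GEM and 0.355 with it, beside -0.0175 over all genes in both. At the adjusted threshold 0% of probe sets were called in either pair, while 2739 and 5211 probe sets had an unadjusted p under 0.05. The signs of the small differences without GEM depend on scaling, since Traf2 and Nfkb2 lay 0.01 above 0 as deposited and below 0 after scaling to the 75th percentile or quantile normalization.

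**Figure D3:**
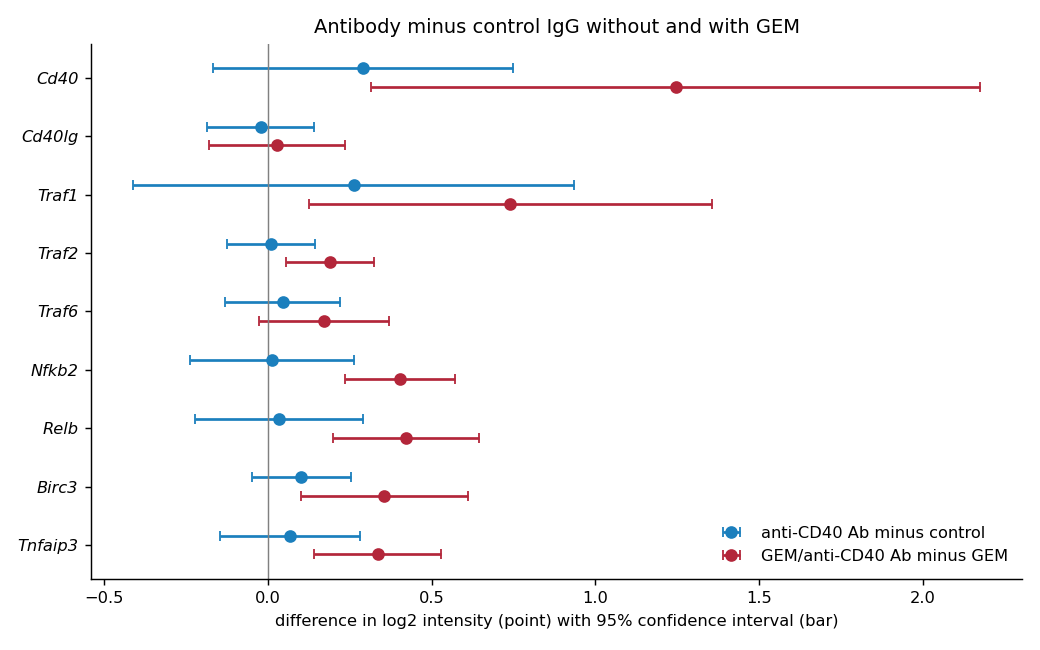
Difference in log2 intensity between agonist and control IgG (horizontal axis) for the 9 members (vertical axis), as points with limma's 95% confidence interval, without GEM in blue and with GEM in red. Without GEM every interval includes 0, and with GEM those of Cd40lg and Traf6 do.

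Over both backgrounds, with GEM as a term in the fit of all 16 arrays, the members' differences between agonist and control IgG ran from 0.0025 for Cd40lg to 0.77 for Cd40. Adjusted p ran from 0.179 for Birc3 (0.23, SE 0.07) to 0.992, and none of the members was among the 167 probe sets called, 0.371% of all, of which 126 rose and 41 fell. That count was 16 without GEM replicate 1 or without GEM replicate 3, and 358 without replicate 3 of GEM/anti-CD40 Ab. In this fit 7 of 9 members had an unadjusted p under 0.05 and were higher, against 7.4% of genes. Their differences were 0.77 for Cd40, 0.50 for Traf1, 0.23 for Relb, 0.21 for Nfkb2, 0.20 for Tnfaip3 and 0.10 for Traf2 beside Birc3. This count is not independent of that with GEM. For Traf2, Nfkb2 and Relb the differences were 0.01, 0.0125 and 0.035 without GEM, and 0.19, 0.40 and 0.42 with GEM. Replicate 4 of the control tumors had an Nfkb2 level of 8.58, above the other controls. Without that array the Nfkb2 difference was 0.28 with an adjusted p of 0.0495, the only member that passed in any setting. The second Nfkb2 probe set read 0.011 over both backgrounds with all arrays (limma's unadjusted p = 0.841). With no array left out singly, the lowest Nfkb2 difference under the alternatives was 0.11.

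Whether the antibody's difference itself depended on GEM was tested as an interaction, and 0% of probe sets passed. The difference with GEM exceeded that without GEM by 0.39 for Nfkb2 (SE 0.14), 0.39 for Relb (SE 0.16), 0.18 for Traf2 (SE 0.07) and 0.955 for Cd40 (SE 0.50), all with an adjusted p of 0.89. Without replicate 1 of the GEM/anti-CD40 Ab tumors the value for Cd40 was 0.565. Unadjusted p were under 0.05 for 3 of 9 members (Nfkb2, Relb and Traf2), against 2.81% of genes in the same direction. Second probe sets gave interaction values of 0.0275 for Traf1, 0.0675 for Nfkb2, -0.005 for Birc3 and 0.3375 for Tnfaip3. The others of Cd40 gave 1.115 and 1.355, and those of Traf6 ran from -0.15 to 0.1075. The probe sets that stand for the members thus give larger values with GEM than without, which not every second probe set shows. The adjusted test does not separate the 2 backgrounds.

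Among the GEM/anti-CD40 Ab tumors, replicate 1 held the highest value of the group for 7 of 9 members, replicate 3 held the lowest for 5, and replicate 4 held the lowest for 3. Replicate 1 exceeded all 12 tumors of the other groups for 8 members, replicates 2 and 4 for 6 each, and replicate 3 for 2. Over the 16 arrays Cd40 correlated with Birc3 at r = 0.925 (rho 0.694), with Tnfaip3 at 0.83 (rho 0.659), with Relb at 0.781 (rho 0.592) and with Nfkb2 at 0.706 (rho 0.502). Without the 2 highest tumors, replicates 1 and 2 of GEM/anti-CD40 Ab, these were 0.729, 0.518, 0.369 and 0.362, so that much of the relation of Cd40 to Relb and Nfkb2 rests on those 2. Around the group means, 20 of the 28 pairs among the 8 members other than Cd40lg correlated above 0, with r from -0.456 to 0.901. Cd40lg correlated with none of the others beyond -0.266 to 0.161. These correlations are descriptions over arrays that share group differences and treatments.

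Of the 18184 genes that are not members, those most like Cd40 over the 16 arrays were Klrk1 (r = 0.961, rho 0.839), Slc2a6 (0.955, rho 0.788), Cd69 (0.955, rho 0.768), Hcls1 (0.95, rho 0.88) and P2ry13 (0.949, rho 0.877). Klrk1 encodes the receptor NKG2D of NK and T cells, Cd69 is an early activation marker of lymphocytes, Slc2a6 is a sugar transporter, Hcls1 is a cytoskeletal protein of blood cells, and P2ry13 is a purine receptor. The 5 most like Nfkb2 were Dbnl (r = 0.898, rho 0.852), Cd200r4 (0.896, rho 0.877), Pnp (0.884, rho 0.881), Irf8 (0.882, rho 0.802) and Slamf8 (0.882, rho 0.855). Irf8 is a transcription factor of dendritic cells and macrophages, Slamf8 a surface receptor of myeloid cells, and Pnp an enzyme that breaks down purine nucleosides.

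Other genes of the pathway were taken from lists. Counts in a list stand beside the share of all 18193 genes that were higher at an unadjusted p under 0.05. That share was 3.52% without GEM, 6.67% with GEM and 7.4% over both backgrounds. Lower at that p were 1357 of the 45037 probe sets without GEM and 2925 with GEM. Of 7 listed genes of NIK and its noncanonical partners 6 were measured, without Chuk. None of the 6 had an unadjusted p under 0.05 without GEM, and 2 were higher with GEM. These were Traf5 (0.305, adjusted p = 0.416), a further adaptor of the family, and Tbk1 (0.23, adjusted p = 0.351), a kinase that restrains NIK. Map3k14, the NIK gene itself, read 6.00 ± 0.09 in GEM tumors and 6.08 ± 0.04 with GEM/anti-CD40 Ab (SD, n = 4). Of 10 listed genes of the canonical arm 8 were measured, without Nfkb1 and Ripk1. None of the 8 had such a p in either pair, and their median difference was -0.0025 without GEM and 0 with it. Single genes moved in both directions. In the interaction Rela had a value of 0.26 and Map3k7, the TAK1 gene, of -0.27 (adjusted p = 0.89 for both). These 2 are named after their values were seen. Ikbkg, the scaffold of the IKK complex, differed by 0.07 and Tab1, an adaptor of the kinase TAK1, by -0.04 on the GEM background.

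Of 13 inhibitors and feedback genes of NF-kB, 7 had an unadjusted p under 0.05 on the GEM background and 3 without GEM, all higher, with median differences of 0.21 and 0.04. The shares of all genes that were higher at that p were 6.67% and 3.52%. Nfkbia, the inhibitor IkB-alpha and a classic NF-kB target, stood at 12.00 ± 0.02 in GEM tumors and 12.34 ± 0.21 with GEM/anti-CD40 Ab (SD, n = 4), a difference of 0.33 (adjusted p = 0.276). N4bp1, a suppressor of NF-kB signaling, differed by 0.31 with GEM and 0.24 without (adjusted p of 0.329 and 0.807). The others of the 3 without GEM were Nfkbid (0.19) and Bcl3 (0.19), nuclear relatives of the IkB proteins, both with an adjusted p of 0.807. Nfkbie, the related inhibitor IkB-epsilon, had the widest difference of the list on the GEM background, 0.77 (adjusted p = 0.237), and 0.0075 without GEM. These 3 are named after their values were seen.

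Among 9 other ligands and receptors of the noncanonical arm, 3 were higher with GEM at an unadjusted p under 0.05 and none without. These were Ltb, the lymphotoxin beta chain (7.17 ± 0.14 and 8.05 ± 0.51 in GEM and GEM/anti-CD40 Ab, SD, n = 4, adjusted p = 0.237), Tnfsf13b, the B cell factor BAFF (5.97 ± 0.03 and 6.70 ± 0.43, adjusted p = 0.237), and Tnfsf11, the ligand RANKL (a difference of 0.24, adjusted p = 0.342). Tnfsf11 and Map3k14 are named after their values were seen. Of 4 measured RelB-dependent chemokine and adhesion genes of lymphoid stroma, 1 had an unadjusted p under 0.05, Cxcl12, which differed by 1.59 with GEM (adjusted p = 0.362) and by 0.99 without (adjusted p = 0.809). Cxcl13, the B cell chemokine, differed by 0.315 and 0.03.

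The list of 20 genes known to be induced through CD40 in antigen-presenting cells was counted on each background. With GEM, 8 were higher at an unadjusted p under 0.05, against 6.67% of all genes, and none was lower, with a median difference of 0.29. Without GEM, 1 was higher, against 3.52% of all genes, and 2 were lower, with a median of 0.0175. Cflar, an inhibitor of caspase-8, was the one higher in both, by 0.28 and 0.255, and over both backgrounds its adjusted p was 0.0523. Ccr7, the receptor that takes dendritic cells to lymph nodes, differed by 0.76 with GEM (adjusted p = 0.321) and 0.45 without. Named after their values were seen, Ccl22, a chemokine of activated dendritic cells, differed by 1.40 with GEM (adjusted p = 0.228), and Cd83 and Ccl17, both known from mature dendritic cells, by -1.0 and -0.88 without GEM (adjusted p = 0.807 for both). Interaction tests for the list gave 6 of 20 with an unadjusted p under 0.05, all above 0, against 2.81% of genes, and none past adjustment.

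**Figure D4:**
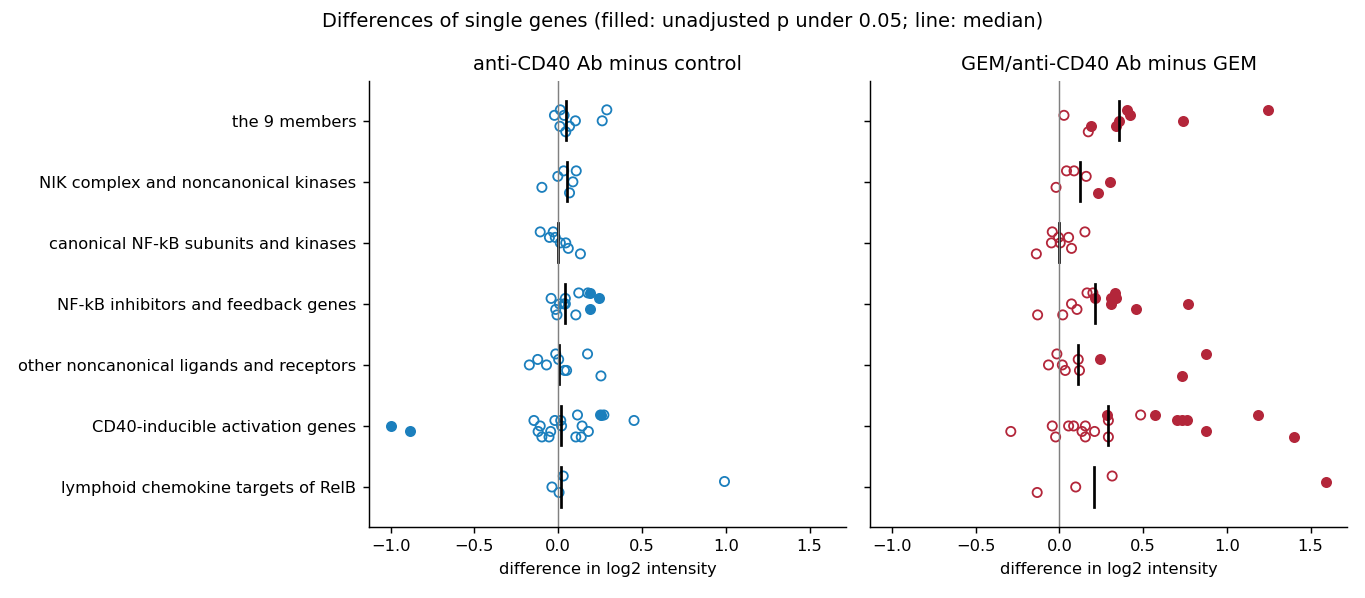
Difference in log2 intensity between agonist and control IgG (horizontal axes) for each gene of the members and of 6 pathway lists (vertical axis), without GEM on the left and with GEM on the right. Filled points have an unadjusted p under 0.05 and lines mark medians, which with GEM are 0.355 for the members, 0.21 for the inhibitors and 0 for the canonical genes.

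Markers of cells that carry CD40 or its ligand were read beside the members, and none passed adjustment in either pair. For the counts here and in the next paragraph, 6.67% of all genes were higher at an unadjusted p under 0.05 with GEM and 3.52% without. The mean level of the 9 macrophage markers ranged from 7.98 to 8.68 with GEM and from 8.42 to 9.55 with GEM/anti-CD40 Ab, and 6 of 9 had an unadjusted p under 0.05 and were higher. That of the 9 T cell markers ranged from 5.07 to 5.26 and from 5.44 to 6.65, with 6 of 9 higher. Without GEM the ranges were 8.06 to 8.71 in control and 8.27 to 8.96 in anti-CD40 Ab tumors for macrophages, and 5.26 to 6.01 and 5.64 to 6.78 for T cells, with 1 of 9 higher in each, Itgam and Cd8b1, the latter named after its values were seen. Over both backgrounds Itgam, the CD11b chain of myeloid cells, rose by 0.96 (adjusted p = 0.039), while the T cell genes Cd3g and Cd3d differed by 1.60 and 1.13 (adjusted p of 0.0708 and 0.0754). In that fit 7 of the 9 T cell markers lay above 0. Cd4 read 6.34 in control, 6.2625 in anti-CD40 Ab and 6.155 in both GEM and GEM/anti-CD40 Ab tumors. Cd8a read 5.9725, 5.9025, 5.8525 and 5.8675 in the same order of groups. Both are named after their values were seen. Within the GEM/anti-CD40 Ab group the macrophage mean was 9.55, 9.03, 8.42 and 8.88 in replicates 1 to 4 and the T cell mean 6.65, 6.19, 5.70 and 5.44, so that replicate 1, the highest for most members, was also the highest for both lists. Replicate 3, the lowest for Cd40, was the lowest for macrophage markers. Their part in the members' differences was not tested.

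The mean of the 7 B cell markers lay between 4.72 and 5.00 in all GEM/anti-CD40 Ab tumors and between 4.83 and 4.86 in GEM tumors, with none of 7 higher and Blk lower by 0.18 (adjusted p = 0.388). Cd79a, a chain of the B cell receptor, differed by -0.11. Of 7 dendritic cell markers 2 had an unadjusted p under 0.05 and were higher with GEM, Irf8 (1.25, adjusted p = 0.277) and Itgax (0.57, adjusted p = 0.367), 1 was lower, Cd209a (-0.20, adjusted p = 0.313), and 3 were lower without GEM, Flt3 (-0.26), Xcr1 (-0.35) and Cd209a (-0.25), all with an adjusted p of 0.807. The list's mean ranged from 5.68 to 5.90 with GEM and 5.76 to 6.24 with GEM/anti-CD40 Ab. Only 3 of the 7 lay above 0 in that pair, with a median difference of -0.0725, so the mean does not stand for every marker. Of 7 endothelial markers 6 were higher with GEM and 4 without, with Pecam1 and Cdh5 at 0.685 and 0.615 with GEM and 0.58 for both without (adjusted p from 0.295 to 0.807). Platelet markers, from cells that carry the ligand, had 2 of 5 higher with GEM (Pf4 and Ppbp) and 3 without (Itgb3 as well), and Pf4 rose by 0.69 over both backgrounds (adjusted p = 0.048). The platelet markers did not move together, and their median difference was 0.0275 with GEM and 0.235 without. Itga2b read 7.085 in control and 6.985 in anti-CD40 Ab tumors, and 6.9925 in GEM and 6.9725 in GEM/anti-CD40 Ab tumors. Irf8, Itgax, Xcr1, Ppbp, Itgb3 and Itga2b are named after their values were seen. The calls of Itgam and Pf4 were not recomputed with arrays left out.

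Cd40 followed some of these lists across the 16 arrays. Its r was 0.949 with the mean of the genes known to be induced through CD40 (rho 0.873), 0.806 with macrophage markers (rho 0.702), 0.69 with T cell markers (rho 0.63), 0.682 with dendritic cell markers (rho 0.645) and 0.31 with B cell markers (rho 0.116). Without the 2 highest tumors these were 0.766, 0.535, 0.557, 0.304 and -0.215. With markers of the tumor epithelium r was -0.0579, and 0.203 without the 2 highest tumors. Endothelial, fibroblast and skeletal muscle markers gave 0.424, 0.303 and 0.144 over all arrays, and 0.543, 0.419 and 0.566 without those tumors. Platelet and skin markers gave 0.27 and -0.0173, and 0.146 and 0.226 without them. With those tumors left out, the relation was thus not particular to lists of immune cells.

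**Figure D5:**
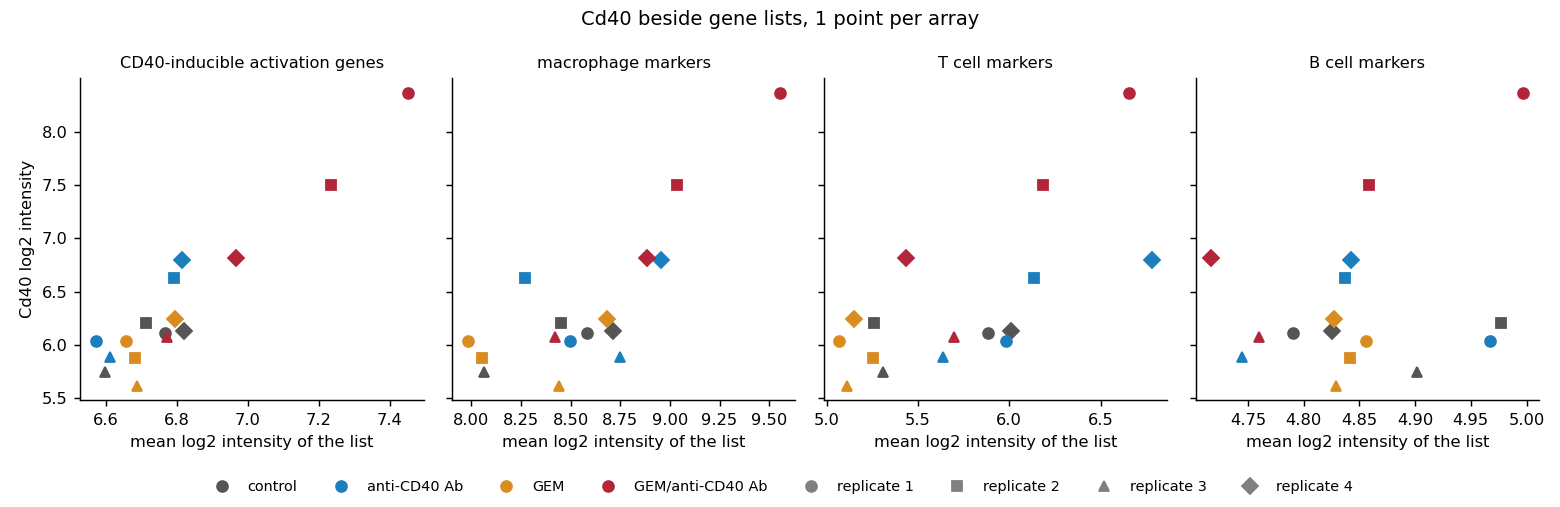
Cd40 log2 intensity (vertical axis) against the mean log2 intensity of 4 gene lists (horizontal axes), 1 point per array, colored by group and with the replicate number as the symbol. Replicates 1 and 2 of GEM/anti-CD40 Ab lie at the upper right for the first 2 lists, and replicate 3 of that group lies among the other tumors.

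Tissue other than tumor differed between libraries. The mean of 7 skin keratinocyte markers was 9.02 in control replicate 2 and 6.97 in anti-CD40 Ab replicate 2, against 4.54 to 5.37 in all others, and that of 8 muscle markers was 12.5 in GEM/anti-CD40 Ab replicate 4, against 4.42 to 8.17. Leaving out these 3 arrays, 1 of which is in this pair, gave differences of 1.37 for Cd40, 0.40 for Nfkb2, 0.48 for Relb and 0.415 for Birc3 on the GEM background, none past adjustment. Of the skin markers none had an unadjusted p under 0.05 in either pair, with Krt10 and Dsg1a at -0.57 and -0.375 over both backgrounds. Of the muscle markers 5 of 8 were lower without GEM at that p, as were 1357 of the 45037 probe sets. Myh1 and Pvalb differed by -0.92 and 0.52 over both backgrounds. None of 7 epithelial markers had such a p, with Krt19 and Cldn4 at -0.13 and 0.28 over both backgrounds. Of 7 fibroblast markers 1 was lower with GEM, Lum (-0.81, adjusted p = 0.325, named after its values were seen), and 2 were higher over both backgrounds, Dcn and Pdgfra, by 0.66 and 0.63. GEM replicates 3 and 4 are titled with 1 animal number between them, although 4 mice per group are stated. The 2 arrays differed as much as other pairs of that group by SD of the difference, 0.26 against 0.211 to 0.281. Their share of identical values was the highest of the group, 2.68% against 2.16% to 2.64%. Whether they came from 1 animal was not tested, and both were kept.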

How the data were processed

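RNA of 16 pieces of tumor tissue was hybridised to Affymetrix mouse arrays, from 4 mice per group per the labels, although GEM replicates 3 and 4 share an animal number. Per the labels the authors processed the arrays with RMA (version not given in the sources used here), and the deposited values are log2 intensities with 2 decimals. RMA makes the arrays alike in distribution, so a shift of all genes cannot be seen.

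Of 45101 probe sets, 64 array controls were left out. A single symbol was listed for 34945 and several for 932, while 9160 were unnamed here. Pairs of groups (8 arrays) were fitted with limma 3.58.1 in R 4.3.3, two-sided, with Benjamini-Hochberg adjustment over 45037 probe sets at 0.05. The fit over both backgrounds and the interaction used all 16 arrays. The code was tested on simulated data. P-values measure only the spread between these tumors.

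Members, lists and rules were chosen with earlier results of these data known. Genes of a list were named where they passed, or else up to 2 with the smallest p over both backgrounds; others are marked as named after their values were seen. Alternatives covered the arrays in the fit, dim probe sets, variance prior, scaling, choice of probe set and replicate block.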

Additional observations from a re-analysis of the deposited data

Results flagged for a closer look

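Of 36 groups of 4 tumors examined (9 members in 4 groups), 1 held a value far from the rest of its group. Tnfaip3 in control replicate 4 read 9.71, where the nearest of the other 3 controls read 9.92, a gap of 0.84 of the group's whole range. Chance alone sets off this criterion in about 1 of 20 groups. Without that array the difference of Tnfaip3 between anti-CD40 Ab and control tumors was 0.011 in place of 0.0675.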

How the results depend on the processing

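The members' test results kept their side of the threshold in 161 values under 18 settings on the GEM background and in 152 values under 17 settings without GEM. Without GEM, Traf2 turned to -0.0175 and -0.0098 and Nfkb2 to -0.015 and -0.0123 after 75th percentile scaling and quantile normalization, Nfkb2 to -0.005 with the mean of its probe sets, and Nfkb2 and Relb to -0.033 and -0.063 without the 3 arrays with skin or muscle genes. Over both backgrounds Cd40lg turned to -0.0225 after 75th percentile scaling and to -0.0038 without those 3 arrays. The same 3 arrays left out gave 3 called probe sets without GEM, 1 with GEM and 40 over both backgrounds, in place of 0, 0 and 167. The count of 167 became 327 without dim probe sets (and without Cd40lg, which this removes), 57 with a trended and robust prior, 51 with the replicate block and 19 with GEM replicates 3 and 4 averaged. Same-numbered tumors correlated at -0.374 to 0.343 (mean 0.0455, 10 of 24 pairs over 0.1). The main fits did not treat the numbers as pairs, and these correlations cannot exclude that tumors of 1 number shared a batch. The replicate block changed no other call. The cause was not tested.

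With each array left out in turn, called probe sets ranged from 0 to 2 without GEM, from 0 to 1 with GEM and from 16 (without GEM replicate 1, as without GEM replicate 3) to 358 (without GEM/anti-CD40 Ab replicate 3) over both backgrounds, and called members from 0 to 1 in the last. Differences without GEM ranged from 0.137 to 0.44 for Cd40, -0.058 to 0.022 for Cd40lg, -0.034 to 0.456 for Traf1, -0.015 to 0.028 for Traf2, -0.0033 to 0.09 for Traf6, -0.05 to 0.127 for Nfkb2 and -0.037 to 0.105 for Relb. Cd40lg ranged from -0.044 to 0.079 with GEM, from -0.0325 to 0.025 over both backgrounds and from -0.022 to 0.102 in the interaction, where Cd40 ranged from 0.565 to 1.325, Traf1 from 0.268 to 0.774 and Traf6 from 0.055 to 0.176.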
